A study of Drosophila melanogaster with 9 samples.

Results

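Replication of a chromosome starts at origins, where the origin recognition complex loads the replicative helicase and each new leading strand begins from a short RNA primer. The primer protects young leading strands from lambda exonuclease, so that digestion leaves short nascent strands (SNS) whose positions mark start sites. The regions described here were found in the middle-sized SNS fraction of Drosophila melanogaster S2 cells, came back in a neighbouring size fraction, and were nevertheless absent from the origin lists made from pooled fractions of S2 and of Bg3 cells. They were selected on their positions alone: a region of fraction 5 under 4000 bp wide, on chromosome arm 2L, 2R, 3L or 3R outside the centromere-proximal ends of 2L (starts from 21 Mb) and 3L (from 22.5 Mb), that overlapped a region of fraction 4 or fraction 6 by at least 1 bp and no pooled origin of either line. There were 742 such regions, called members here, among 6448 regions of fraction 5 and 32247 regions in all 5 deposited lists.

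S2-DRSC is a cell line of embryonic origin and ML-DmBG3-c2 (Bg3) a line from the larval nervous system. Both were grown without any treatment named in the labels, in different media, and no genotype beyond the line was labelled. The 9 samples were pooled-fraction SNS sequencing of S2 and of Bg3, with 2 biological replicates and their merged record for each line, and sequencing of S2 fractions 4 (short), 5 (middle-sized) and 6 (long strands), for which the design text gives 2 libraries per fraction. The lists held 7268 S2 pooled origins, 8212 Bg3 pooled origins and 4505, 6448 and 5814 regions of fractions 4, 5 and 6. Each list was a single set of calls with no column per replicate, so no test between lists was possible. The fraction lists held positions only, without reads or scores, and the depth behind a member is unknown. Below, values are set against other regions of fraction 5, with the range over the 4 arms as the spread. Intervals are 95% intervals, exact Clopper-Pearson for shares and exact order-statistic intervals for medians. They treat regions as independent, although neighbours share libraries and sometimes a larger region, and they cover counting error only. Positions are in the dm3 build as deposited, where a start may be off by 1 base. Genes and base sequences at these positions were not examined here.

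The rule narrowed the list in steps. Of the 6448 fraction 5 regions, 4755 lay on the 4 arms, 4363 of these lay outside the excluded ends and 4251 were also narrower than 4000 bp. Fraction 4 or 6 held 3337 of the 4251, called repeated regions here. Of the 4251, 1131 (26.6%) were in neither pooled list, and 742 of those 1131 were repeated and thus members. Repetition in another fraction was seen for 65.6% of the regions absent from the pooled lists, beside 83.2% (2595 of 3120) of the regions in a pooled list. Most regions absent from the pooled lists were therefore in a second fraction list. The members made up 22.2% of the repeated regions. The others were 2295 repeated regions in the S2 pooled list, which serve as the main comparison below, and 300 in the Bg3 pooled list only, which like the members were absent from the S2 pooled list.

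Values at the edges of the rule were as follows. The widest member measured 3954 bp and the next 3451 bp, while 5 regions that met every other criterion were wider than the limit, from 4529 to 4712 bp. The smallest overlap that made a region repeated was 10 bp, 21 members had their best overlap over less than 50% of their width, and the closest unrepeated region lay 9 bp from a fraction 4 or 6 region. On the pooled side, 1 member touched a pooled origin without overlapping it, and the smallest overlap that kept a repeated region out was 3 bp. Fewer than 50 bp of pooled overlap were found in 16 of the 2595 repeated regions in pooled lists. The last member on 2L started at 20891809 and the first such region past the limit at 21269651. On 3L these were 21416252 and 22553076.

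Members were present on all 4 arms. They numbered 170 on 2L, 204 on 2R, 117 on 3L and 251 on 3R, or 8.10, 9.65, 5.20 and 8.99 per Mb. As a share of the repeated regions they came to 20.4% on 2L (interval 17.7 to 23.3), 22.9% on 2R (20.2 to 25.8), 18.7% on 3L (15.7 to 21.9) and 25.5% on 3R (22.8 to 28.4). The share was thus highest on 3R and lowest on 3L, whose intervals did not overlap, while each of the other neighbours in this order had overlapping intervals. Arm 3L also had the fewest repeated regions per Mb, 27.9, against 39.8 on 2L, 42.1 on 2R and 35.3 on 3R. The difference between the arms was not tested.

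Narrow regions were missed by the pooled lists more often than wide ones. With the repeated regions ranked by width and cut into 4 classes of nearly equal size, members made up 28.7% of those of 175 to 382 bp (interval 25.7 to 31.9), 24.6% at 383 to 545 bp (21.7 to 27.7), 19.6% at 546 to 837 bp (17.0 to 22.5) and 15.9% at 838 bp and over (13.5 to 18.6). The median member was 478 bp wide (453 to 503) and ranged from 401 to 517 bp over the arms. The median of the repeated regions in the S2 pooled list was 585 bp (567 to 604; arms 508 to 611). Members were the narrower set on all 4 arms, with a ratio of medians of 0.817. Repeated regions in the Bg3 pooled list only had a median of 456 bp (418 to 488), whose interval overlapped that of members. A wide region overlaps a pooled origin more readily than a narrow one, so the rule itself favours narrow members. Regions found in fraction 5 alone and absent from both pooled lists (389 regions) were narrower still, with a median of 372 bp (354 to 391).

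**Figure D1:**
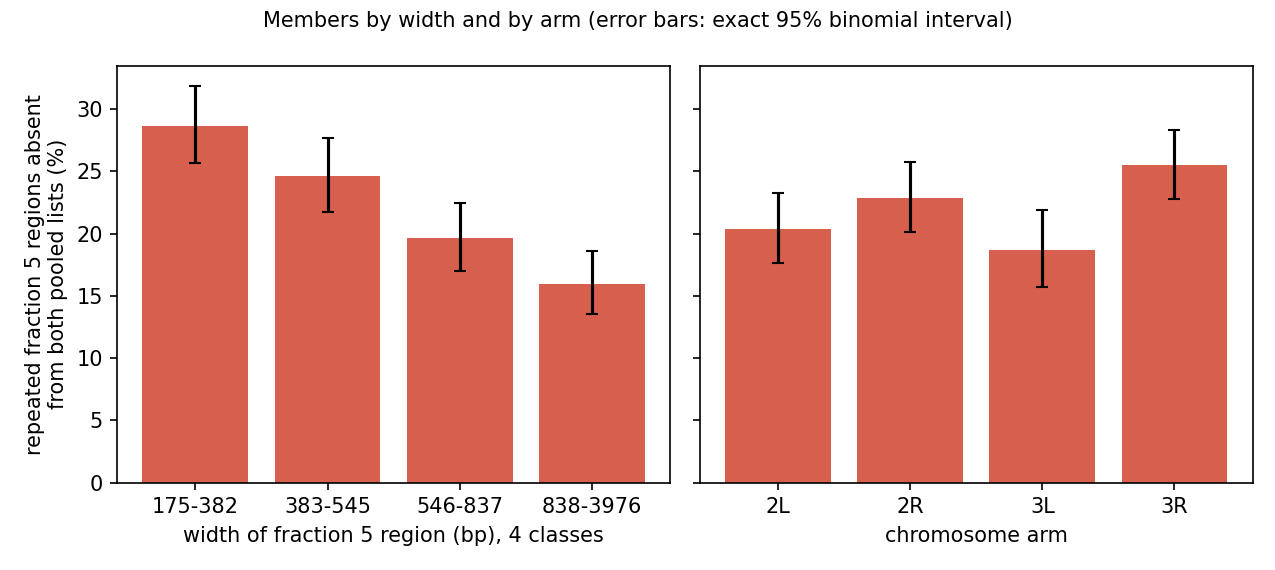
The vertical axis gives members as a percentage of the repeated fraction 5 regions, by class of region width in bp (left) and by chromosome arm (right), and lines are exact 95% binomial intervals. The share falls from 28.7% in the narrowest class to 15.9% in the widest, and runs from 18.7% on 3L to 25.5% on 3R.

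Fraction 6, the long strands, was the more common partner. It held 627 of the 742 members (84.5%) and fraction 4, the short strands, held 397 (53.5%). Among the repeated regions in the S2 pooled list these shares were 87.3% and 70.6%. The shortfall of members against that set lay mainly in fraction 4, which was lower on all 4 arms (52.5 to 54.2% beside 64.3 to 73.8%). In the Bg3 pooled list only, the shares were 79.7% (74.7 to 84.1) in fraction 6 and 61.7% (55.9 to 67.2) in fraction 4. Both intervals overlapped those of members, 81.7 to 87.0 and 49.8 to 57.1. Fraction 4 was the shortest of the 3 fraction lists, and its depth is unknown. In all, 345 members were in fraction 6 only, 115 in fraction 4 only and 282 in both.

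Support from both fractions is thus 38.0% of members (interval 34.5 to 41.6), beside 58.0% (55.9 to 59.98) of the repeated regions in the S2 pooled list and 52.0% of all 3337 repeated regions. The members' share was lower than that of the S2 pooled regions on every arm, at 35.3 to 39.7% against 53.8 to 60.4%. Of the 300 repeated regions in the Bg3 pooled list only, 41.3% (35.7 to 47.1) were in both, which overlapped the members' interval. Lower support than in the S2 pooled regions was thus found in both sets absent from the S2 pooled list. Wider regions were more often in both fractions, but the order held within each width class. In the narrowest class 50 of 241 members (20.7%) and 156 of 489 S2 pooled regions (31.9%) were in both. In the second class the shares were 36.6% (75 of 205) and 44.1% (242 of 549), the closest pair. In the third they were 43.6% (71 of 163) and 66.1% (401 of 607). In the widest they were 64.7% (86 of 133) and 81.7% (531 of 650). No intervals were computed for these shares within classes. The rule requires at least 1 of these fractions, so the shares are a description and not a test.

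Support also went with width among members. Those in both fractions had a median width of 579 bp (541 to 637), against 420 bp (400 to 453) for those in fraction 6 only and 403 bp (371 to 463) for those in fraction 4 only. The repeated regions in the S2 pooled list showed the same pattern. Their medians were 716.5 bp in both fractions, 442 bp in fraction 6 only and 458 bp in fraction 4 only. A wide region overlaps a second list more readily than a narrow one. Among members, the distance to a pooled origin did not separate the 3 kinds of support, with medians of 2098, 2180 and 2196 bp and overlapping intervals.

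**Figure D2:**
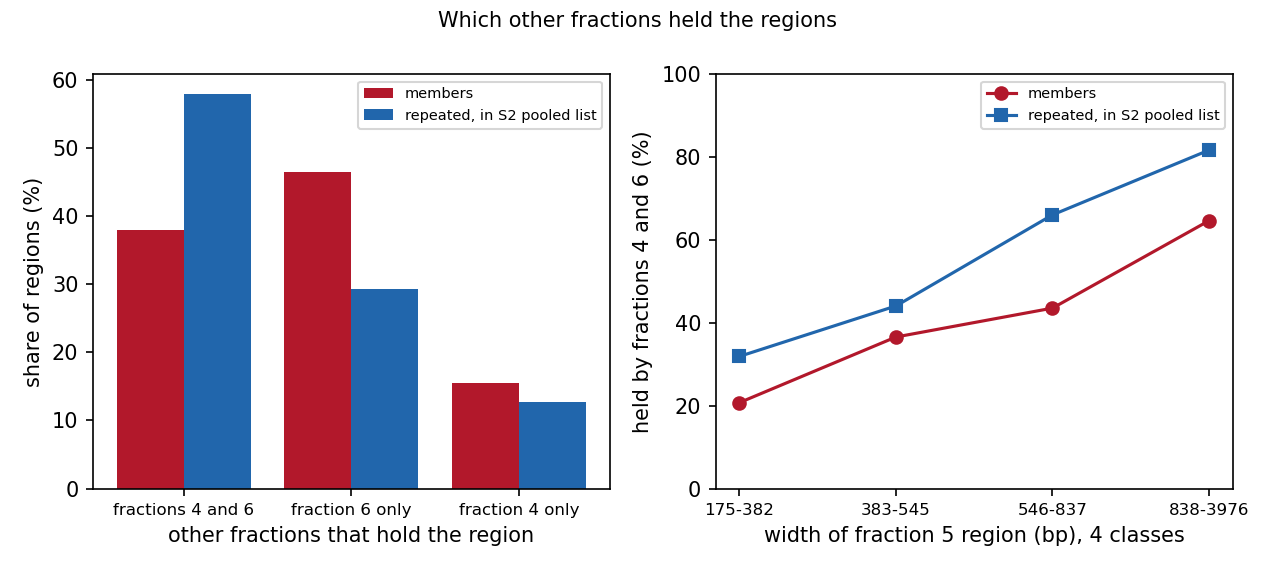
The left panel gives the percentage of members (red) and of repeated regions in the S2 pooled list (blue) held by both other fractions, by fraction 6 only or by fraction 4 only. The right panel gives the percentage held by both fractions in each class of width in bp, where members lie below the S2 pooled regions in all 4 classes, at 20.7% against 31.9% in the narrowest and 64.7% against 81.7% in the widest.

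The positions of members in the 3 fractions could be compared where the match was clear. A total of 210 of the 282 members in both other fractions overlapped exactly 1 region of fraction 4 and 1 of fraction 6 that overlapped no other fraction 5 region. Their centres lay a median of 36.75 bp (30 to 47.5) from the fraction 4 centre and 40.25 bp (33 to 45.5) from the fraction 6 centre. The 1090 repeated regions in the S2 pooled list matched in the same way gave 43.75 bp (39 to 48.5) and 35.5 bp (32.5 to 38.5), with intervals that overlapped those of members. Overlap is required by the rule and single matches by this selection, so close centres are a description of both sets and not evidence of repeated placement. The 4 boundary differences of a member, summed over start and end against both other fractions, had a median of 262 bp (226 to 293) and reached 3131 bp.

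The 5 members most alike in the 3 fractions illustrate this. On 2R a member from 6479929 to 6480516 was 588 bp wide in fraction 5, 588 bp in fraction 4 and 564 bp in fraction 6, with a summed boundary difference of 30 bp, and the nearest pooled origin was 515 bp away. Another on 2R, from 11863121 to 11863480, measured 360, 382 and 349 bp in fractions 5, 4 and 6, and lay 19111 bp from any pooled origin. The others were on 2R from 1165076 to 1165354 (279 bp in fraction 5), on 3L from 1363078 to 1363412 (335 bp) and on 3L from 2934707 to 2935266 (560 bp). Their summed differences were 43, 46 and 49 bp. Their nearest pooled origins lay 485, 1602 and 237 bp away, so close agreement was found both near pooled origins and far from them.

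Members were narrower than the S2 pooled regions in fractions 5 and 6 but not in fraction 4. At the 210 members the median width was 645 bp (597 to 672) in fraction 4, 549 bp (515 to 586) in fraction 5 and 544 bp (490 to 599) in fraction 6. At the 1090 S2 pooled regions it was 593 bp (574 to 612) in fraction 4, 711 bp (686 to 736) in fraction 5 and 689 bp (667 to 718) in fraction 6. The intervals of the 2 sets overlapped in fraction 4 and lay apart in the other two. Within a region, fraction 4 over fraction 5 had a median ratio of 1.15 (1.11 to 1.20) at members and 0.954 (0.932 to 0.969) at S2 pooled regions. Fraction 4 was the wider in 159 of 210 members (75.7%) and in 458 of 1090 S2 pooled regions (42.0%). In 80 regions of the Bg3 pooled list only, matched in the same way, the ratio was 1.12 (1.01 to 1.21), which overlapped that of members. Their median widths were 540.5 bp (456 to 604), 492.5 bp (418 to 593) and 496.5 bp (426 to 565) in fractions 4, 5 and 6. These intervals also overlapped those of members.

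The arms gave the same order. At members the ratio was 1.14 on 2L, 1.14 on 2R, 1.22 on 3L and 1.14 on 3R, and at S2 pooled regions 0.949, 0.981, 0.999 and 0.918, so these 2 sets did not overlap over arms. The ratio of fraction 6 to fraction 5 was 1.004 in both sets (intervals 0.975 to 1.03 at members and 0.998 to 1.01 at S2 pooled regions). Over the whole lists, which also hold other chromosomes and wider regions, the median widths were 689, 536 and 578 bp in fractions 4, 5 and 6. Fraction 4 was thus the widest there. Under the limits of the rule, with each fraction as the starting list, repeated regions in the S2 pooled list had medians of 598, 585 and 652.5 bp. In that set fraction 6 was the widest. Those in neither pooled list had 607, 478 and 509 bp. The rule acts on the extent of the fraction 5 region, the denominator of the ratio, and its part in the ratio was not tested.

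**Figure D3:**
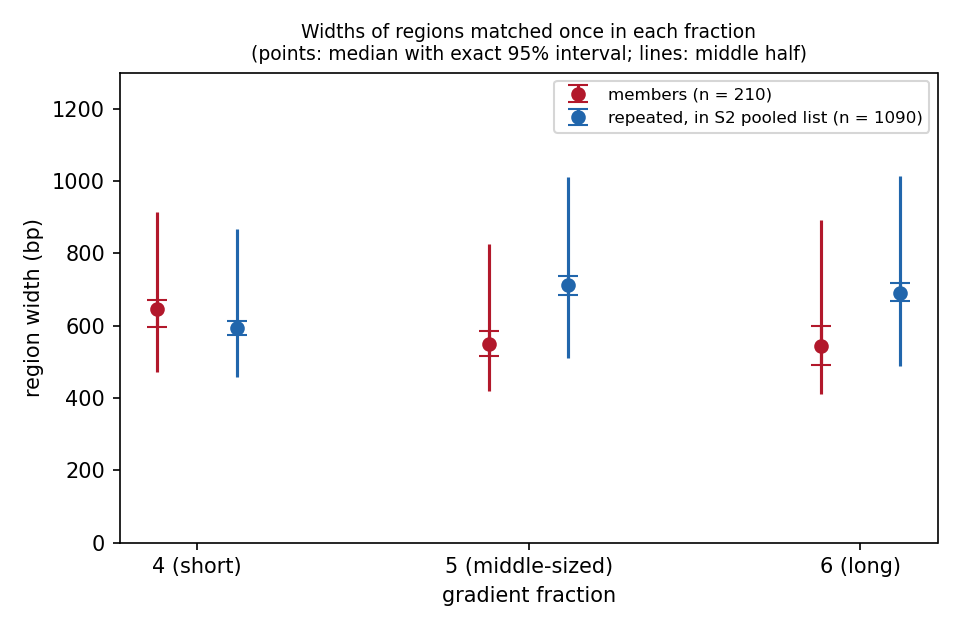
Region width in bp (vertical axis) in gradient fractions 4, 5 and 6 for the 210 members (red) and 1090 repeated regions in the S2 pooled list (blue) matched once in each fraction. Points are medians with exact 95% intervals and lines span the middle 50% of regions: fraction 4 has the highest median at members, 645 bp, and the lowest at S2 pooled regions, 593 bp.

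Some members shared a larger short-strand region with another fraction 5 region. Of the 397 members in fraction 4, 74 (18.6%, interval 14.9 to 22.8) had a best-matching fraction 4 region that also overlapped another fraction 5 region, beside 11.5% (9.96 to 13.1) of S2 pooled regions. That fraction 4 region was at least 2 kb wide for 56 members (14.1%) and for 8.51% of S2 pooled regions. Both shares were higher at members than at S2 pooled regions on all 4 arms. In the Bg3 pooled list only they came to 17.8% (12.6 to 24.1) and 13.5% (8.94 to 19.3), with intervals that overlapped those of members. In fraction 6 the split regions came to 8.77% of members and 9.23% of S2 pooled regions, with the order varying between arms.

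Partner regions cover much of the same stretch as a member, which by the rule overlaps no pooled origin. Their absence from the pooled lists is thus largely set by the rule. For 683 of the 742 members (92.0%) no fraction 4 or 6 region they overlapped touched a pooled origin. For the remaining 59 members (7.95%) a partner did reach one, with a part of the partner that lay outside the member. These 59 lay a median of 112 bp (56 to 196) from the nearest pooled origin, and 50 of them within 500 bp. The 683 lay a median of 2535 bp (2197 to 2912) away, and 222 of them (32.5%) more than 5 kb away. A partner can reach a pooled origin only where one lies near, so the split itself favours short gaps among the 59. Examples of the first kind were 2 of the 5 widest members. The member on 2L from 20891809 to 20895198 (3390 bp) lay 32 bp from an S2 origin, and the fraction 4 and 6 regions there spanned 4733 and 4557 bp. The member on 2R from 13035003 to 13038382 (3380 bp) lay 19 bp from an S2 origin, inside a fraction 4 region of 4674 bp.

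The other 3 widest members had no such contact. The widest, on 3R from 25647560 to 25651513 (3954 bp), was in fraction 4 only, as a region of 3660 bp, and lay 1662 bp from the nearest S2 and 5767 bp from the nearest Bg3 origin. A member on 2R from 14246159 to 14249609 measured 3451 bp in fraction 5, 3510 bp in fraction 4 and 3507 bp in fraction 6, and lay 1973 bp from the nearest pooled origin. The last, on 3R from 10988528 to 10991856 (3329 bp), lay 21479 bp from any pooled origin and overlapped 2 regions of fraction 4.

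How near members lay to pooled origins, relative to other regions, depended on the comparison. The gap from a member to the nearest pooled origin of either line had a median of 2161 bp (1841 to 2522; arms 1675 to 3085) and a range of 0 to 56609 bp. For repeated regions in the S2 pooled list the gap to the nearest pooled origin that they did not overlap was 3365 bp (3112 to 3634; arms 2858 to 3864), the larger on all 4 arms. For those in the Bg3 pooled list only it was 2222.5 bp (1830 to 2985), whose interval overlapped that of members. A pooled origin within 500 bp was found for 189 members (25.5%, 22.4 to 28.8), beside 12.7% (11.3 to 14.1) of S2 pooled regions, 14.3% (10.6 to 18.8) of those in the Bg3 pooled list only and 15.7% of all repeated regions. The sets are not alike in this measure, since a region in a pooled list already lies on a pooled origin and its next origin must be a separate one. The difference of 12.8 percentage points from S2 pooled regions came to 7.67 without the 59 members whose partner reached a pooled origin. It came to 6.53 when only the S2 pooled list defined absence and gaps were measured to S2 origins only.

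A second comparison was with regions of fraction 5 that were also absent from both pooled lists but in no other fraction. Their median gap was 2828 bp (2420 to 3254), which overlapped that of members and was the smaller on 1 of the 4 arms, and 19.8% (15.9 to 24.1) had a pooled origin within 500 bp. The members' share was higher on 3 of the 4 arms, with arm differences from -3.21 to 14.5 percentage points, and the intervals of the 2 shares overlapped. Among all 1131 regions absent from the pooled lists, 76.4% of the 72 within 100 bp of a pooled origin were repeated (64.9 to 85.6). The share was 69.1% of the 194 farther off but within 500 bp, 64.1% of the 516 beyond that but within 5000 bp and 63.6% of the 349 beyond 5000 bp (58.3 to 68.7). The share was lower at longer gaps, but the intervals of the nearest and the farthest class overlapped.

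**Figure D4:**
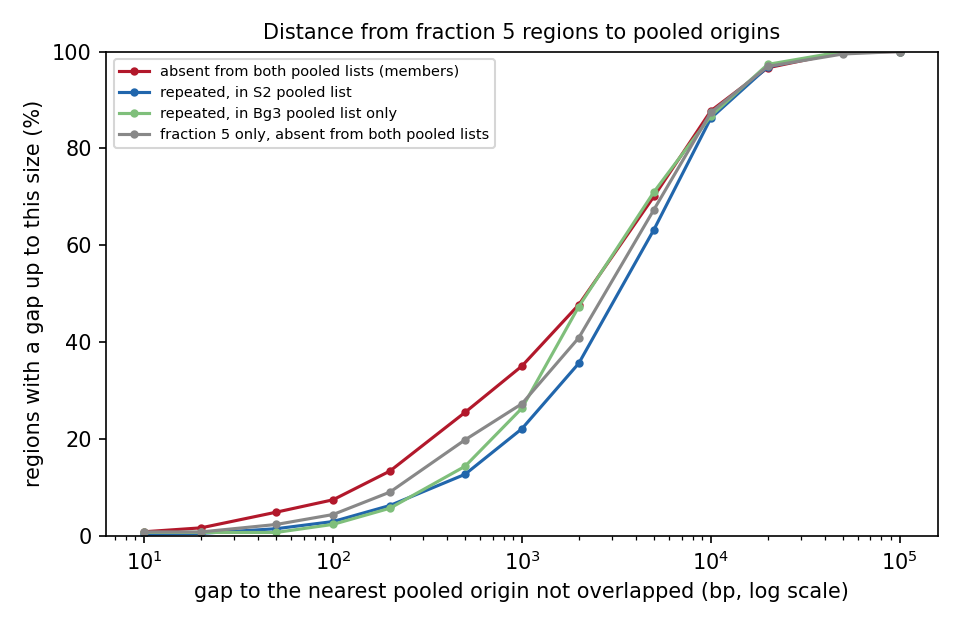
Cumulative percentage of fraction 5 regions (vertical axis) by the gap in bp, on a log scale, to the nearest pooled origin they do not overlap. Members (red) lie above the repeated regions in the S2 pooled list (blue) at short gaps, with 25.5% against 12.7% at 500 bp, and regions in fraction 5 alone (grey) lie between, at 19.8%.

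Either pooled list could be the closer one. An S2 origin was the nearest pooled origin for 451 members (60.8%) and a Bg3 origin for 291 (39.2%). Among repeated regions in the S2 pooled list, the nearest origin not overlapped was an S2 origin for 1266 of 2295 (55.2%). Among those in the Bg3 pooled list only, it was an S2 origin for 135 of 300 (45.0%). The strength of a pooled origin, deposited as its efficiency, is a read density, in reads per kb. The nearest S2 origin of a member had a median strength of 1550 reads per kb (1507 to 1578), close to the S2 list median of 1566. The nearest Bg3 origin had 2171 reads per kb (2143 to 2203), below the Bg3 list median of 2254. The scales of these lists differ, so the values compare within a list only. For repeated regions in the S2 pooled list the nearest origins not overlapped had 1593 reads per kb (1575 to 1619) in S2 and 2225 (2203 to 2247) in Bg3. The medians beside members were the lower in both lists, with overlapping intervals in S2 and intervals that lay barely apart in Bg3. For repeated regions in the Bg3 pooled list only, the medians were 1525 reads per kb (1476 to 1593) in S2 and 2218 (2159 to 2325) in Bg3. Both intervals overlapped those of members.

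The members nearest to and farthest from pooled origins show both ends of this range. The member on 3L from 12177041 to 12177319 directly adjoined an S2 origin. Those on 2L from 15777785 to 15778045 and from 10223363 to 10223666, and on 3R from 19702228 to 19702506, lay 1, 2 and 2 bp from an S2 origin, and the one on 2R from 13374093 to 13374806 lay 3 bp from a Bg3 origin. All 5 belonged to the 59 whose partner reached a pooled origin. At the other end, a member on 2L from 4544344 to 4545043 lay 56609 bp from any pooled origin, although all 3 fractions held it, with widths of 778, 700 and 730 bp in fractions 4, 5 and 6. The next 4, on 2R from 4875784 to 4876240, on 3R from 9562367 to 9562777, on 3L from 9923199 to 9923844 and on 3R from 14179959 to 14180387, lay 41593, 40755, 40178 and 37521 bp away. These 4 were in fraction 6 but not in fraction 4, and their fraction 6 regions were 327, 327, 711 and 423 bp wide.

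Some members had another fraction 5 region close by. Such a neighbour within 1 kb was found for 284 members (38.3%, 34.8 to 41.9), beside 32.5% (30.6 to 34.5) of S2 pooled regions, 33.0% (27.7 to 38.6) of those in the Bg3 pooled list only, 33.9% of all repeated regions and 18.8% of the regions in fraction 5 alone. The members' share was higher on all 4 arms than in the S2 pooled regions and than in fraction 5 alone. The interval of the regions in the Bg3 pooled list only overlapped that of members. Joining members with at most 1 kb between them gave 672 loci, of which 616 held 1 member, 47 held 2, 6 held 3, 2 held 4 and 1 held 6. In all, 126 members (17.0%) shared a locus. The nearest other member was a median of 22449 bp away (18912 to 28905).

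The locus with 6 members lay at the distal end of 3R, from 27899001 to 27904745. Its members were of nearly equal width, 820 to 845 bp, and followed each other at regular steps, with 952 to 1007 bp from start to start. Fractions 4 and 6 each held all 6 as separate regions, of 907 to 925 bp and 828 to 908 bp. Neither pooled list had an origin this far out: the last S2 pooled origin on 3R ended at 27893877 and the last Bg3 pooled origin at 27893397, whereas the fraction lists ran to 27904779, 27904745 and 27904765 in fractions 4, 5 and 6. The S2 origins nearest to the 6 members were 5123 to 10048 bp away.

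A second regular row lay inside 2R, from 11863121 to 11864868. Its 4 members were 353 to 472 bp wide, started 399 to 478 bp apart and were 6 to 46 bp from the next fraction 5 region. All 4 were in both other fractions, and the nearest pooled origin was 17723 to 19111 bp away. The 4 members on 3L from 14305876 to 14309301 were less regular, with 483 to 1589 bp between starts. The loci of 3 included 2L from 17273488 to 17277378 and 2R from 15607593 to 15610868. Whether the sequences within a row resemble each other was not examined here.

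At the scale of 100 kb, the densest window was on 3L from 14.3 to 14.4 Mb, where 7 of 10 repeated regions were members. It held 3 S2 and 5 Bg3 pooled origins. Another 5 windows held 6 members each, and the 2 of these with the fewest repeated regions, 9 each, are described next. The one on 2L from 8.9 to 9.0 Mb had 8 S2 pooled origins and no Bg3 pooled origin, and its members lay 231094 to 265474 bp from the nearest Bg3 origin but only 278 to 5974 bp from the nearest S2 origin. The one on 3R from 8.3 to 8.4 Mb had 4 pooled origins of each line.

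Over 1 Mb windows the members were spread widely but unevenly. Of 94 windows 93 held a member, with a median of 8 and at most 22. The highest count was on 2L from 8 to 9 Mb, where members were 36.7% of 60 repeated regions. That window also held 92 S2 and 42 Bg3 pooled origins. Among the 92 windows with at least 10 repeated regions, the share of these that were members had a median of 21.1% and ran from 3.57% to 60.0%. The highest share was on 3R from 8 to 9 Mb, where 21 of 35 repeated regions were members and 13 were in the S2 pooled list, and that window held 57 S2 and 40 Bg3 pooled origins. The lowest was on 2R from 12 to 13 Mb, with 1 member of 28 repeated regions, 63 S2 and 61 Bg3 pooled origins. With these counts a single window has a wide counting error, and no window was tested.

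The same rule was applied with the other fractions as the starting list. Under the same limits, 2149 of 2698 fraction 4 regions were repeated in fraction 5 or 6, and 400 of these (18.6%, interval 17.0 to 20.3) were in neither pooled list. From fraction 6, 2908 of 3691 regions were repeated and 668 (23.0%, 21.5 to 24.5) were in neither. The value from fraction 5 was 22.2% (20.8 to 23.7), so fraction 4 was the lowest and fractions 5 and 6 did not differ beyond their intervals. Of the 400 fraction 4 regions 341 (85.3%) overlapped a member, and of the 668 fraction 6 regions 593 (88.8%) did. Both sets were chosen to overlap another fraction and no pooled origin, so the shared rule itself favours this overlap. The fraction 4 regions of this kind were as wide as the repeated ones in the S2 pooled list, at 607 bp (575 to 647) against 598 bp (580 to 613), whereas those of fraction 6 were narrower, at 509 bp (485 to 538) against 652.5 bp (628 to 672).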

How the data were processed

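The deposited files were 5 lists of origin regions. Per the submitters' processing notes, Bowtie2 2.2.0, SAMtools 0.1.19 and MACS 1.4.1 were used with build dm3; their settings, the thresholds and the combining of libraries before calling were not given in the sources used here. Chromosome, start and end were used as deposited. The efficiency deposited for S2 and Bg3 origins is a signal in reads per kb: in S2, strength times width was whole within 0.001 for 100% of origins. Overlap meant at least 1 shared bp, and gaps counted the bases between regions, with overlapping pooled origins of both lines joined. The best match was the region with most shared bases. Interval code was tested on simulated data. Python 3.11.15, pandas 2.3.3, numpy 2.4.6 and scipy 1.17.1 were used.

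The members and all comparisons were chosen with earlier results of these data known. Named members were the 5 widest, the 5 farthest from and the 5 nearest to a pooled origin, the 5 most alike in 3 fractions and the 3 windows of 100 kb with most members (ties by fewer repeated regions); the loci, gap classes and 1 Mb windows were picked with their values in view. Other settings tried concerned the overlap rules, merging, width, support, the pooled lists and the arms. Planned values for base composition and gene starts need dm3 sequence and annotation and were not computed here.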

Additional observations from a re-analysis of the deposited data

Results flagged for a closer look

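Regions that met the overlap criteria but lay outside the limits on place and width entered none of the comparisons above. On the X chromosome 99 of 472 repeated fraction 5 regions (21.0%, exact 95% interval 17.4 to 24.9) were in neither pooled list. On chromosome 4 there were 21 of 54 (38.9%, 25.9 to 53.1), and on the heterochromatic scaffolds 175 of 963 (18.2%, 15.8 to 20.8). The excluded ends of 2L and 3L held 86 of 340 (25.3%, 20.8 to 30.3), of which 48 were on 2L and 32 on 3L with widths under 4000 bp. Among repeated regions of 4000 bp or more on the 4 arms there were 5 of 112 (4.46%, 1.47 to 10.1). The intervals for X and the arm ends include the 22.2% found among the regions described above, that for chromosome 4 lies above it, and those for the scaffolds and the wide regions lie below it. The 22.2% is for widths under 4000 bp, whereas the count for the arm ends also includes wider regions, so the sets are unlike in width. These differences were not tested.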

How the results depend on the processing

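The number of members was 742 and lay between 512 and 1042 under the alternatives that kept it within 1.5 times. It fell to 282 when both other fractions were required and to 491 without 3R, both by construction. The share in both fractions was 38.0% and moved beyond its interval only with regions merged within 1 kb, to 33.6%. The difference from S2 pooled regions, -19.9 percentage points, was then -26.7 and otherwise -21.3 to -16.7. Median width was 512 bp when 50% pooled coverage was needed for presence and 579 bp for members in both fractions. The width ratio to S2 pooled regions was 0.888 under that coverage rule and 0.700 after merging. The median gap to a pooled origin rose to 3571 bp when gaps up to 500 bp counted as presence, 3124 bp after merging, 4538 bp with the S2 pooled list alone and 2535 bp without members whose partner touched a pooled origin, and fell to 1838 bp without 3R. The excess of members within 500 bp of a pooled origin, 12.8 points, was 9.26 after merging, 6.53 with the S2 list alone and 7.67 without those members. The fraction 4 over 5 width ratio of 1.15 was 1.07 after merging and 1.11 to 1.16 otherwise. The comparisons with S2 pooled regions and the fraction 4 over 5 width ratio kept their direction under the alternatives that gave a value. The member count, share in both fractions, median width and median gap have no direction that could change. Of the alternatives, 2 (partner contact with pooled origins, and a width limit on fractions 4 and 6) were added after seeing the data. So were all alternatives for the comparisons with S2 pooled regions and for the fraction 4 over 5 ratio. Counting gaps up to 500 bp as presence leaves out members near pooled origins, so the median gap rises by construction. The same holds without members whose partner touched a pooled origin. With the S2 pooled list alone, gaps were measured to S2 origins only. The causes of the other shifts were not tested. Base composition and gene starts were not run. The fraction lists hold no depth, which limits what absence from a list can show.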
